A study of Mus musculus with 14 samples.

Results

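The 9 genes followed here mark megakaryocytes and the platelets they release, and were measured across mouse hematopoietic tissues: Pf4, Ppbp, Itga2b, Gp1bb, Gp9, Gp1ba, Treml1, Thbs1 and Vwf. The genes were taken by symbol, and all 9 were found in each of the 14 sections, among 19465 features in the feature tables of the cross and 32589 in those of the purchased mice. RNA was measured with 10x Genomics Visium on formalin-fixed, paraffin-embedded tissue, an assay that counts probe pairs bound to transcripts in printed spots that each cover several cells. Of the 14 sections, 6 came from purchased wild-type C57BL/6 mice with 1 section per group: E13.5 fetal liver, E14.5 fetal liver, leg bone with marrow at P8, bone marrow from the leg at 89 weeks, adult spleen, and leg bone with marrow that had been kept in 0.5 M EDTA for 5 days from a mouse of 6 months. The other 8 came from a cross of mice heterozygous for C1qa and made up 4 groups of 2: wild-type and C1qa knockout E14.5 fetal livers (numbers 2 and 4, each number a wild-type and a knockout littermate of the same pregnant mouse) and wild-type and C1qa knockout spleens at 3 months (numbers 1 and 2, which are not said to mark litters). The knockout line came from the Jackson Laboratory, and which spots held megakaryocytes was not given by any label.

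Megakaryocytes are large polyploid cells that arise in the fetal liver and later in the bone marrow, and in mice the spleen also makes them throughout life. They load alpha granules with chemokines and adhesive proteins, cover their surface with the receptors that platelets use to stick and aggregate, and shed platelets into the blood. Pf4 (CXCL4) and Ppbp (the precursor of beta-thromboglobulin and CXCL7) are alpha granule chemokines. Thbs1 encodes thrombospondin-1 and Vwf encodes von Willebrand factor, both adhesive glycoproteins of the granules. Itga2b is the alpha chain of the fibrinogen receptor, while Gp1ba, Gp1bb and Gp9 form, with Gp5, the receptor for von Willebrand factor. Treml1 encodes TLT-1, a receptor held in the granules and brought to the surface on activation. Thbs1 is also made by stromal and other mesenchymal cells, Vwf by endothelial cells, and Pf4 can be found in some macrophages.

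Values are given in CPM, the counts of a gene per 1000000 unique molecular identifiers (UMIs), with both summed over the in-tissue spots of a section with at least 1000 detected genes. Between 491 and 2320 spots passed in 13 sections, with 4225805 to 56182915 UMIs, whereas the EDTA section kept 15 of 814 spots with 37167 UMIs and is given as values only. C1qa was at 25.8 to 269 CPM in the 4 wild-type sections of the cross and at 0.0548 to 0.189 CPM in the 4 knockouts. Hepatocyte genes were high in all fetal livers (7611 to 119634 CPM for 12 genes) and lymphocyte genes in all spleens (7779 to 9719 CPM for 16 genes), but spots with under 0.5% hepatocyte UMIs made up 69.7% of wild-type fetal liver 4 and 36.3% of knockout fetal liver 4, against 5.60% and 3.26% of the sections numbered 2. The fetal liver sections of the cross hold other embryonic tissue too, and their whole-section values include it. Spots of the P8 section under 0.5% neutrophil UMIs made up 55.9% of it, and 6 cartilage genes reached 33400 CPM there against 19.3 CPM in the 89-week marrow. Spot barcodes mark positions on the array and were shared by up to 4992 spots between sections, so they do not identify cells.

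The 9 genes lie on 6 chromosomes of the GRCm38.p6 assembly. Ppbp (chr5:90768518-90770063) and Pf4 (chr5:90772435-90773383) are neighbours with 2371 bases between them, and Gp1ba and Itga2b lie far apart on chromosome 11. Gp1bb (chr16:18620319-18622403) overlaps Septin5, so counts of the pair may not be fully separate. Upstream sequences were found for 7 of the 9 in RefSeq (GRCm38.p6): Pf4, Ppbp, Itga2b, Gp1bb, Gp9, Gp1ba and Treml1. The 250 bases before the start are shown for the neighbouring chemokine genes and for 1 subunit of each of the receptors for fibrinogen and von Willebrand factor, so that each of these roles has an example. Capitals mark GATAA or its reverse TTATC, the core of GATA factor sites, and AGGAA or its reverse TTCCT, a core of ETS factor sites; GATA and ETS factors are the transcription factors best known from megakaryocyte genes.
Pf4, chr5:90772185-90772434, plus strand: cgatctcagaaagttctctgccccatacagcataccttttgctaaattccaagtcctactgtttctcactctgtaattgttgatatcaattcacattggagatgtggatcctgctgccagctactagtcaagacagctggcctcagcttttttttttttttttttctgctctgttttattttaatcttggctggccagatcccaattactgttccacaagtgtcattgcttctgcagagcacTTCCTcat
Ppbp, chr5:90768268-90768517, plus strand: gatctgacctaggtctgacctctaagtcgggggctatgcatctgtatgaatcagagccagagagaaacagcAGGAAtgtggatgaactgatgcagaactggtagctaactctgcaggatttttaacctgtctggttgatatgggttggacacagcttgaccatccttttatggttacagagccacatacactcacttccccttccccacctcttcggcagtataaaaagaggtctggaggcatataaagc
Itga2b, chr11:102469884-102470133, minus strand: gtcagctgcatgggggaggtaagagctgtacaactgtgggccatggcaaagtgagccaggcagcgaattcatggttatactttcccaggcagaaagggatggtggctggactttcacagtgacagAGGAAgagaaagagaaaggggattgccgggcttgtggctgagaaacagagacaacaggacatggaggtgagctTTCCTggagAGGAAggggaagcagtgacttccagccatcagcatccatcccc
Gp1ba, chr11:70638872-70639121, plus strand: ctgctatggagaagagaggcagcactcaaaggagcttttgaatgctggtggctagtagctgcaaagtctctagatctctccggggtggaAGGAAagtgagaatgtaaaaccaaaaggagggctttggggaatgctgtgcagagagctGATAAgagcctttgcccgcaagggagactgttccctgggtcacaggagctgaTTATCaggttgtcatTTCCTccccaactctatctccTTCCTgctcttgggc
The last 20 bases of the Gp1ba window lie inside the annotated span of the gene, as do all 250 bases of the Gp9 window, which is not shown. Gp1ba held GATAA letters at 2 places and AGGAA letters at 3, Itga2b held AGGAA letters at 3 places, and Pf4 and Ppbp held them at 1 each, that of Pf4 starting 8 bases before the start. Over the 7 members, 2 windows (Gp1ba and Gp9) held the GATAA letters, which 22.6% of the 32851 upstream windows in the table hold, and 6 held the AGGAA letters, which 60.3% hold. The 2 windows with both, again Gp1ba and Gp9, compare with 14.4% of all windows. These matches are a description of letters, and no factor binding was measured.

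The granule chemokines were present in every section. Pf4 was at 532.5 CPM in the E13.5 and 530.9 CPM in the E14.5 fetal liver of purchased mice, and at 303 to 511 CPM in the 4 fetal livers of the cross. It stood at 373 CPM in P8 bone marrow and at 940.0 CPM in 89-week bone marrow. In spleen, Pf4 was at 211 CPM in the purchased adult, 158 and 176 CPM in the wild types of the cross and 70.9 and 75.9 CPM in the knockouts. The marrow of the old mouse was thus the highest of these 13 sections and the knockout spleens were the lowest. Ppbp was also highest in 89-week marrow, at 493 CPM, and lowest in knockout spleen 1, at 16.7 CPM. Wild-type fetal liver 4 of the cross, at 21.1 CPM, lay below knockout spleen 2, at 25.7 CPM. Ppbp differed between the mice of the same tissue, with 120 CPM in the purchased adult spleen against 35.1 and 43.3 CPM in the wild-type spleens of the cross, and 124 CPM in both purchased fetal livers against 21.1 to 48.5 CPM in those of the cross. Purchased and cross sections differed in their mice, feature tables and spot lists, which cannot be told apart here.

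The adhesive granule proteins did not follow the chemokines everywhere. Thbs1 was highest in P8 marrow at 730 CPM, followed by 89-week marrow at 618 CPM, and was at 262 to 370 CPM in the fetal livers of both sources. In spleen it fell between 42.0 CPM in knockout spleen 1 and 113 CPM in wild-type spleen 2. Vwf was highest in 89-week marrow at 82.6 CPM and lay at 17.7 to 36.3 CPM in the fetal livers and 27.0 CPM in P8 marrow. The 5 spleens ran from 8.69 to 21.4 CPM for Vwf, the highest of them being the purchased adult.

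The surface receptors were low in number but found in all of the 13 sections with enough spots. Itga2b was at 258 CPM in 89-week marrow, 36.3 CPM in P8 marrow, 38.9 to 71.5 CPM in the 6 fetal livers and 14.8 to 31.6 CPM in the 5 spleens. Among the subunits of the von Willebrand factor receptor, Gp9 ran from 14.3 CPM in knockout spleen 1 to 120 CPM in 89-week marrow and Gp1ba from 6.89 to 115 CPM in the same sections. Gp1bb was the most sparsely counted, with 30 counts in the purchased adult spleen (1.96 CPM, exact Poisson 95% interval 1.32 to 2.80) and 288 in 89-week marrow (34.1 CPM, 30.3 to 38.3). Such intervals cover counting error only. Treml1 was at 150 CPM in 89-week marrow and 18.4 CPM in P8 marrow, and among spleens was at 12.5 CPM in the purchased adult against 44.1 and 46.1 CPM in the wild types and 16.4 and 18.8 CPM in the knockouts of the cross. In the EDTA section, 87 counts of the members were left, 35 of them of Pf4. Gp1ba and Gp1bb had 0 counts there, and the floor of 3 counts stands at 80.7 CPM in that section.

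**Figure D1:**
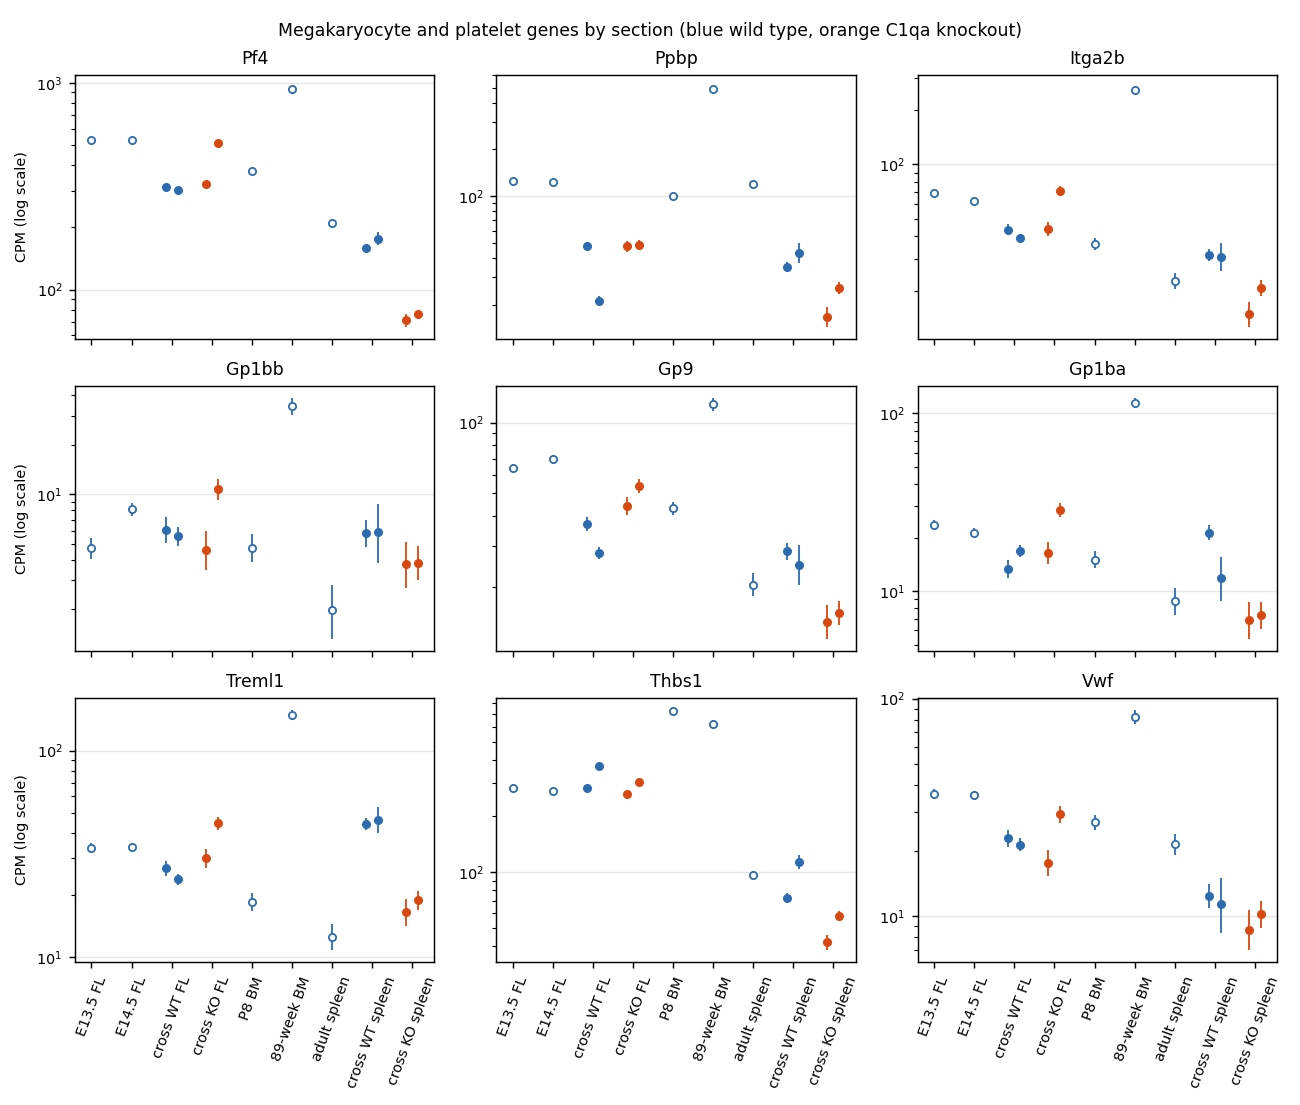
CPM of each gene (log axis) in 13 sections, with exact Poisson 95% intervals as bars. Open circles are purchased sections and filled circles sections of the cross, with blue for wild type and orange for C1qa knockout. FL is fetal liver and BM bone marrow. For 8 of the 9 genes the highest point is the 89-week marrow, whereas Thbs1 is higher in P8 marrow. For all 9 the C1qa knockout spleens lie below the wild-type spleens of the cross, as they do for 51.5% of 18895 genes.

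Between embryonic days the genes barely moved. From E13.5 to E14.5 fetal liver, 0 of the 9 were at least 2-fold higher or lower, where 2.37% of 14036 genes with at least 10 counts were higher and 4.94% lower. The ratio of Pf4 was 0.997 (exact 95% counting interval 0.979 to 1.02) and that of Ppbp 0.996 (0.960 to 1.03). Gp1bb had the ratio farthest from 1, 1.72 (1.45 to 2.06) on 180 and 455 counts. With 1 section per group there was no replicate check for these ratios, and no test was made.

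Between the P8 and 89-week marrow sections they differed far more, with 1 section each and no test. Age, tissue content and the preparation of the bone differ together between these sections and cannot be told apart. In 89-week marrow 8 of the 9 genes were at least 2-fold higher than in P8 marrow, where 15.2% of 14615 genes were. Treml1 was 8.13-fold higher (7.26 to 9.11), Gp1ba 7.63-fold (6.72 to 8.67), Gp1bb 7.22-fold (5.75 to 9.12) and Itga2b 7.11-fold (6.56 to 7.73). Ppbp was 4.91-fold (4.66 to 5.17), Vwf 3.06-fold (2.74 to 3.42), Gp9 2.76-fold (2.53 to 3.02) and Pf4 2.52-fold (2.44 to 2.60) higher at 89 weeks. Thbs1 alone went the other way, at 1.18 times (1.14 to 1.22) its 89-week level in the P8 section. Of 49 other megakaryocyte genes (surface, granule, cytoskeletal and transcription factor genes), 29 were at least 2-fold higher at 89 weeks and 3 lower. The median ratio of P8 to 89 weeks was 0.204 for the members and 1.21 for all genes. In the spots of the P8 section with at least 0.5% neutrophil UMIs, 6 members rather than 8 were at least 2-fold lower than at 89 weeks, where 13.9% of 13938 genes were (Pf4 and Gp9 had ratios of 0.509 and 0.558). Higher by at least 2-fold were 0 members and 27.8% of genes, and the ratio of Thbs1 fell to 0.868.

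The P8 section held spots with marrow, cartilage, muscle and bone genes, whereas the study isolated the old marrow from bone, and the members did not share its regions. In 386 spots with at least 5% cartilage UMIs, Thbs1 stood at 1804 CPM, against 536 CPM in 479 spots with at least 0.5% neutrophil UMIs, which mark marrow. The other 8 genes had the opposite order, with Pf4 at 142 CPM in cartilage spots and 478 CPM in neutrophil spots, Itga2b at 9.37 and 53.5 CPM, Gp9 at 6.69 and 66.8 CPM, and Treml1 at 4.28 and 26.7 CPM. Against E14.5 fetal liver, Thbs1 was 2.68-fold higher (2.63 to 2.75) in the whole P8 section, and was the 1 member past 2-fold where 35.3% of 15038 genes were. In the neutrophil spots alone 0 members passed 2-fold in either direction, where 31.0% of 14601 genes were higher and 9.94% lower, and Thbs1 was at 536 CPM there against 272 CPM in the fetal liver.

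**Figure D2:**
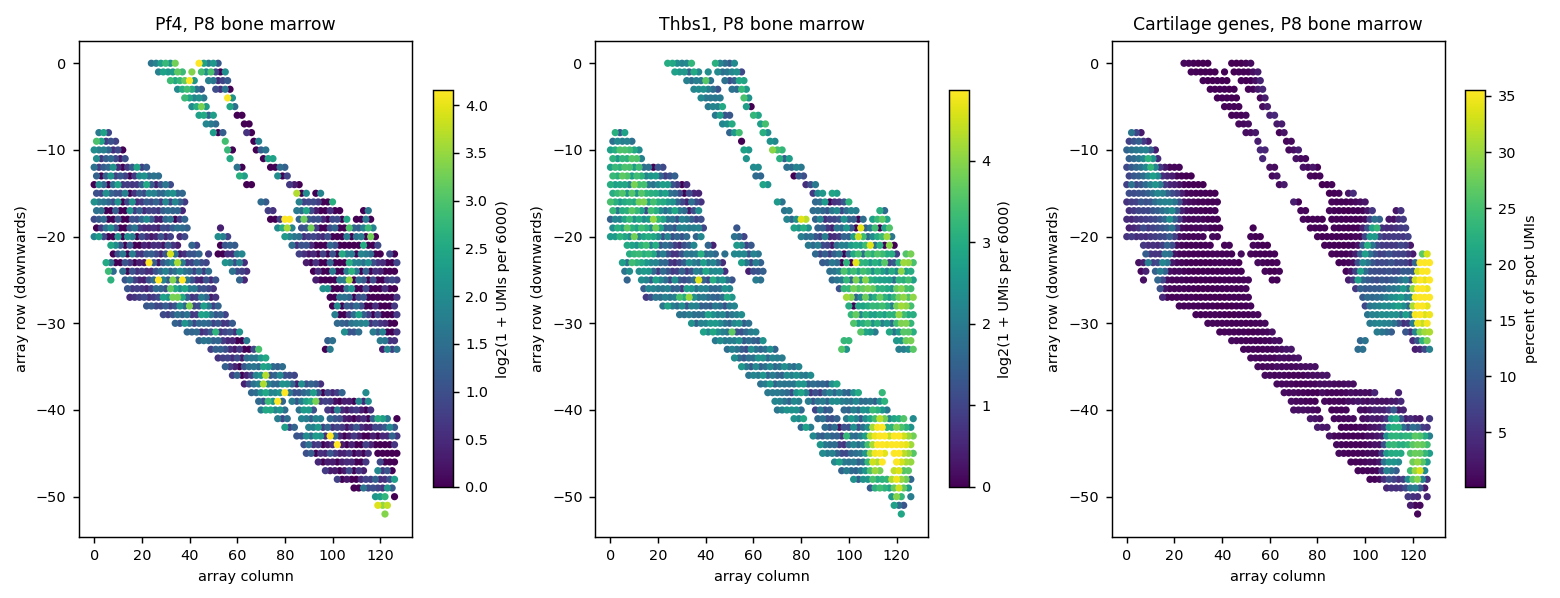
Maps of the P8 leg bone section, each point a Visium spot at its array column and row, coloured by the log2 level of Pf4, the log2 level of Thbs1, or the percent of UMIs of 6 cartilage genes. Colours are capped at the 99th percentile. Thbs1 is brightest over 1 of the cartilage-rich bone ends (1804 CPM in all cartilage spots together). Few bright spots of Pf4 lie over cartilage, and its level had a Pearson r of 0.59 with the mean of adjacent spots.

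In spleen, the members were compared between the tertile of spots with the fewest lymphocyte UMIs and the tertile with the most, within each of the 4 sections of the cross. Pf4 was at 331 and 361 CPM in the lymphocyte-poor tertiles of wild-type spleens 1 and 2, against 46.1 and 51.1 CPM in the lymphocyte-rich ones. In knockout spleens 1 and 2 it was at 126 and 138 CPM against 32.6 CPM in both. Every lymphocyte-poor value exceeded every lymphocyte-rich value, and the log2 difference was 2.59 (SE 0.16, adjusted p = 2.03e-05 by edgeR's quasi-likelihood test with section as block and Benjamini-Hochberg adjustment). All 9 members passed the test in this direction, where 7.40% of 18468 genes did, and 0 in the other, where 5.47% did. Ppbp came next at 2.57 (SE 0.21, adjusted p = 6.61e-05), then Thbs1 at 1.90 (SE 0.14) and Treml1 at 1.89 (SE 0.16). Gp1ba followed at 1.67 (SE 0.25), Itga2b at 1.65 (SE 0.17), Vwf at 1.40 (SE 0.16), Gp9 at 1.12 (SE 0.14) and Gp1bb at 0.91 (SE 0.22, adjusted p = 0.0231). The CPM of 8 members was higher in the poor tertile of every section, as for 7.97% of genes. Gp1bb was the exception, with 7.02 CPM in the poor and 7.19 CPM in the rich tertile of wild-type spleen 2. The purchased adult spleen, which was not in the test, had the same order for all 9, with Pf4 at 437 and 86.4 CPM. Across the spots of the 4 sections the summed members had a Pearson r of 0.37 to 0.52 with erythroid genes, whose part in the result was not tested.

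Of the other megakaryocyte genes, 25 of 48 rose in the lymphocyte-poor tertiles and 2 fell. Alox12, the platelet 12-lipoxygenase, rose by 1.92 (SE 0.13, adjusted p = 3.34e-05), from 26.4 to 109 CPM in wild-type spleen 1 and from 10.9 to 30.0 CPM in knockout spleen 1. Clec1b, the podoplanin receptor CLEC-2, rose by 1.51 (SE 0.11) and Gp5, the remaining subunit of the von Willebrand factor receptor, by 1.72 (SE 0.17). Tbxas1 (thromboxane synthase), Timp3 and Itgb3, the partner chain of Itga2b, rose by 1.62, 1.30 and 1.11. The 2 that fell were Clu and Mef2c, which B cells and follicular cells of the spleen also express.

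In the fetal livers of the cross, spots with at least 0.5% hepatocyte UMIs were compared with the other spots of the section. The split was made because these sections hold other embryonic tissue, so the contrast need not be one of zones within the liver. The transcription factor Gata1 was at 208 to 334 CPM in hepatocyte spots and 1.39 to 25.1 CPM in the others. Myl9 had the opposite order, at 28.1 to 57.2 CPM and 187 to 770 CPM. Pf4 was at 322, 654, 332 and 608 CPM in the hepatocyte spots of wild type 2, wild type 4, knockout 2 and knockout 4, against 58.4, 47.9, 87.6 and 261 CPM in the others. Itga2b was at 45.1, 83.0, 45.0 and 79.6 CPM against 1.39, 6.77, 3.13 and 50.6 CPM. Knockout fetal liver 4 thus had the least contrast for both. In the test, 7 members were higher in hepatocyte spots, where 16.6% of 19140 genes were: Itga2b and Treml1 by 3.22 on the log2 scale (SE 0.64 and 0.61), Gp9 by 3.19 (SE 0.65), Ppbp by 3.16 (SE 0.75), Gp1ba by 3.08 (SE 0.58), Pf4 by 3.04 (SE 0.42) and Vwf by 0.96 (SE 0.29, adjusted p = 0.0342). Gp1bb (1.34, SE 0.52, adjusted p = 0.0861) and Thbs1 (0.65, SE 0.45, adjusted p = 0.321) did not pass. Thbs1 had no common direction, with 289, 412, 244 and 295 CPM in hepatocyte spots and 88.9, 340, 870 and 330 CPM in the others. On the CPM scale 6 members were higher in hepatocyte spots of every section, as for 12.2% of genes, and 0 were lower in every section, as for 37.4%. Without knockout fetal liver 2, the count of members past the threshold was 4. Other spots numbered 70 to 562 per section.

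Of 49 other megakaryocyte genes, 32 were higher in hepatocyte spots and 4 lower. The smallest adjusted p values belonged to the transcription factors Gfi1b (5.30, SE 0.32), Zfpm1 (3.37, SE 0.26), Tal1 (4.80, SE 0.38) and Gata1 (5.73, SE 0.51), which erythroid cells share, to Meis1, which was lower by 2.49 (SE 0.24), and to Fermt3, the integrin activator kindlin-3, at 4.05 (SE 0.41). Erythroid genes filled 49450 to 213927 CPM of these 4 sections, and their part in the result was not tested.

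**Figure D3:**
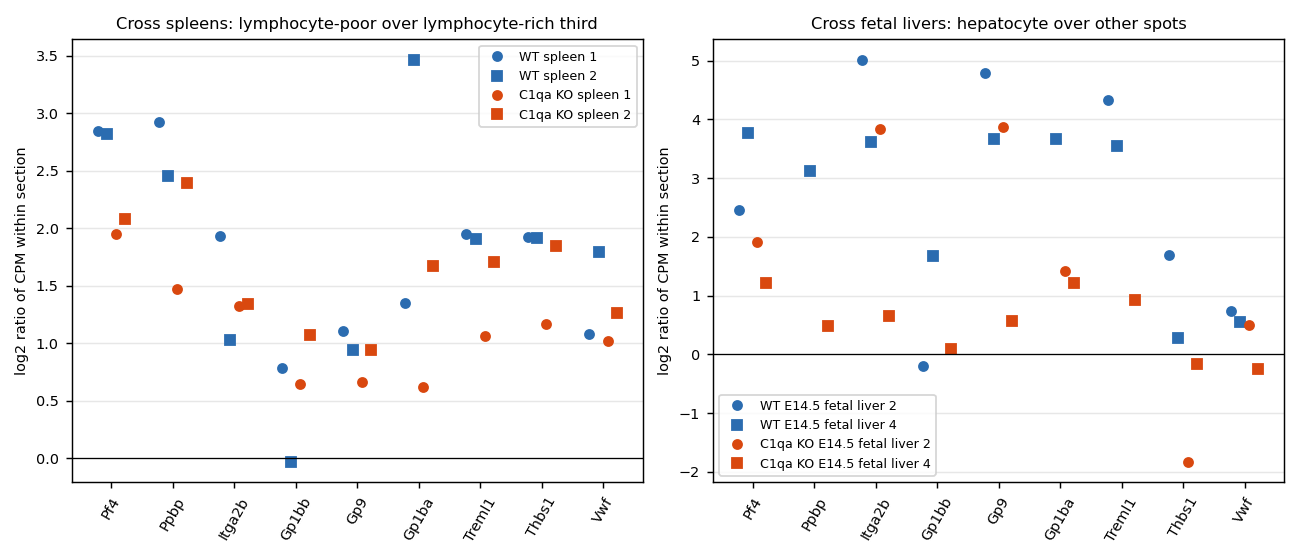
Log2 ratio of CPM between 2 regions of the same section for each gene, lymphocyte-poor over lymphocyte-rich tertile in 4 spleens (left) and hepatocyte over other spots in 4 fetal livers (right); blue is wild type and orange C1qa knockout, and a point is left out where a region had 0 counts. In spleen 8 genes lie above 0 in all 4 sections, and in fetal liver Gp1bb, Thbs1 and Vwf have points on both sides of 0.

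Between tissues of the cross, all 9 members were higher in E14.5 fetal liver than in spleen at 3 months, where 26.6% of 19180 genes were (53.3% were higher or lower). Thbs1 differed most, at 262 to 370 CPM in the 4 fetal livers against 42.0 to 113 CPM in the 4 spleens (log2 difference 2.89, SE 0.31, adjusted p = 0.000411). Pf4 was at 303 to 511 CPM against 70.9 to 176 CPM (2.42, SE 0.28, adjusted p = 0.000492). Vwf, Gp9 and Itga2b were higher by 1.82, 1.78 and 1.77, Gp1ba by 1.44, Ppbp by 1.34 and Gp1bb by 1.18. Treml1 had the smallest difference, 0.86 (SE 0.27, adjusted p = 0.0278), and its wild-type spleens, at 44.1 and 46.1 CPM, were above both wild-type fetal livers, at 26.9 and 23.7 CPM, on the CPM scale. Whole fetal liver sections enter here, and 69.7% of the spots of wild type 4 were under the hepatocyte minimum. With hepatocyte spots alone in fetal liver, all 9 members passed as higher, where 4948 of 19105 genes did. For Pf4, Itga2b, Thbs1 and Vwf every fetal liver lay above every spleen, as for 9.97% of genes, and the other 5 overlapped. The edgeR values are relative to normalization factors and those of CPM are not, and hemoglobin took 52338 to 202841 CPM of the fetal livers against 10656 to 83660 CPM of the spleens. With the wild-type sections alone, 4 members passed, and with upper-quartile factors, which moved the median log2 difference of all genes from -0.10 to -0.50, 6 passed and the split of calls went from 5097 higher and 5119 lower to 3485 and 6604. Without 1 spleen at a time, 6 or 7 members passed. Tissue and age differ together in this comparison and cannot be told apart. In bulk sums of spots, fewer cells of a type and less RNA per cell cannot be told apart either, here and in all comparisons above and below.

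The other megakaryocyte genes split, with 21 of 49 higher in fetal liver and 10 lower. Gata1 and Tal1 were higher by 4.20 (SE 0.45) and 4.12 (SE 0.51), Rab27b, a granule secretion GTPase, by 2.44 (SE 0.25) and the myosin light chain Myl9 by 1.86 (SE 0.23). Lat, an adaptor shared with T cells, was lower by 3.45 (SE 0.28) and the thromboxane receptor Tbxa2r by 1.65 (SE 0.20). In the purchased sections, with no test, the adult spleen was at least 2-fold lower than E14.5 fetal liver for 7 of 9 members, where 12.9% of 15020 genes were, and at least 2-fold higher for 0, where 46.2% were. Ppbp had a ratio of 0.969 (0.919 to 1.02) and Vwf of 0.594 (0.527 to 0.668).

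The C1qa cross asks whether the loss of C1q, a complement protein of macrophages, changes these tissues. In spleen, Pf4 was at 158 and 176 CPM in the wild types and 70.9 and 75.9 CPM in the knockouts, a fall by 0.92 on the log2 scale (SE 0.16, adjusted p = 0.000755). Treml1 was at 44.1 and 46.1 CPM against 16.4 and 18.8 CPM and fell by 1.08 (SE 0.18, adjusted p = 0.000525). Gp1ba was at 21.3 and 11.8 CPM against 6.89 and 7.34 CPM and fell by 1.02 (SE 0.27, adjusted p = 0.0128), and Gp9 at 28.4 and 24.8 CPM against 14.3 and 15.6 CPM and fell by 0.58 (SE 0.20, adjusted p = 0.0433). These 4 of 9 passed the test as lower, and 0 as higher, where 6.79% of 18895 genes were lower and 13.8% higher (20.6% in all). With upper-quartile factors, which moved the median of all genes from -0.08 to -0.37, the split of all calls turned from 2603 higher and 1283 lower to 1197 and 4400, and 7 members passed as lower. The other 5 did not pass: Thbs1 had a log2 difference of -0.60 (SE 0.22, adjusted p = 0.053), Ppbp -0.58 (SE 0.22, adjusted p = 0.0625), Itga2b -0.52 (SE 0.21, adjusted p = 0.0741), Gp1bb -0.35 (SE 0.31, adjusted p = 0.403) and Vwf -0.07 (SE 0.25, adjusted p = 0.851). On the CPM scale both knockouts lay below both wild types for all 9, but so they did for 51.5% of all genes.

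The spleens of the genotypes differed in other ways as well. The 13 neutrophil genes summed to 756 and 699 CPM in the wild types and 112 and 168 CPM in the knockouts. The 13 erythroid genes of the table were at 87538 and 22800 CPM against 11049 and 25851 CPM, and overlapped. The 8 pancreas genes were at 65.9 and 906 CPM against 3730 and 24223 CPM, and the 16 lymphocyte genes at 7891 and 7779 CPM against 9579 and 8893 CPM. The 12 endothelial genes were at 631 and 567 CPM against 526 and 488 CPM. No gene of these 5 lists was at 0 in the 4 spleens. With spots over 0.5% pancreas UMIs left out, the same number of members, 4, passed, and in the lymphocyte-poor tertiles alone Pf4 and Treml1 differed by -1.08 and -1.33 (adjusted p = 0.00964 and 0.00543). In the lymphocyte-rich tertiles Pf4 differed by -0.33 (adjusted p = 0.272) and Treml1 by -0.92 (adjusted p = 0.0266). The parts of the neutrophil, erythroid, endothelial and lymphocyte genes in the result were not tested. Wild-type spleen 2 was the shallowest, at a median of 2294 UMIs per spot against 7846 to 13938 in the other spleens of the cross. With counts thinned to the smallest section 4 members passed, and in DESeq2 3 did. Single sections weighed on these calls: without knockout spleen 2, 240 genes and 1 member (Treml1, -1.30, adjusted p = 0.0138) passed, and without wild-type spleen 1 the adjusted p was 0.442 for Gp1ba and 0.242 for Gp9.

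Other megakaryocyte genes did not move as a body in the knockout spleens, with 9 of 48 higher and 7 lower. Gata1 fell by 2.03 (SE 0.24, adjusted p = 2.88e-05), from 57.2 and 32.2 CPM to 8.12 and 10.4 CPM, and Gfi1b fell by 2.05 (SE 0.27, adjusted p = 6.01e-05). Both are also erythroid factors. Alox12 fell by 1.25 (SE 0.19, adjusted p = 0.000197), from 59.8 and 71.5 CPM to 20.5 and 24.7 CPM, and the matrix protease inhibitor Timp3 fell by 0.95 (SE 0.16). Bin2 rose by 1.19 (SE 0.18) and Cd226, an adhesion receptor that T and NK cells also carry, by 2.22 (SE 0.37).

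In fetal liver, no effect of genotype on the members was detected. Pf4 was at 312 and 303 CPM in wild types 2 and 4 and 325 and 511 CPM in knockouts 2 and 4, and Thbs1 at 282 and 370 CPM against 262 and 305 CPM. Knockout fetal liver 4 was the highest of the 4 for Pf4, Itga2b, Gp1ba, Gp1bb, Gp9, Treml1, Ppbp and Vwf. The log2 differences ran from -0.38 (SE 0.58) for Thbs1 to 0.29 (SE 0.56) for Gp9, and each adjusted p was 1.00. Of 18986 genes 0 passed in edgeR's test, or 0.0%, with 138 at an unadjusted p under 0.05 and 7 calls in DESeq2. With litter as a block 157 genes passed, 0 of them members. On the CPM scale both knockouts were above both wild types for 4 members, Pf4, Itga2b, Gp9 and Treml1, where 7.46% of genes were. In hepatocyte spots alone the difference of all 9 was below 0, with Pf4 at -0.30, so the sign depended on which spots were summed.

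**Figure D4:**
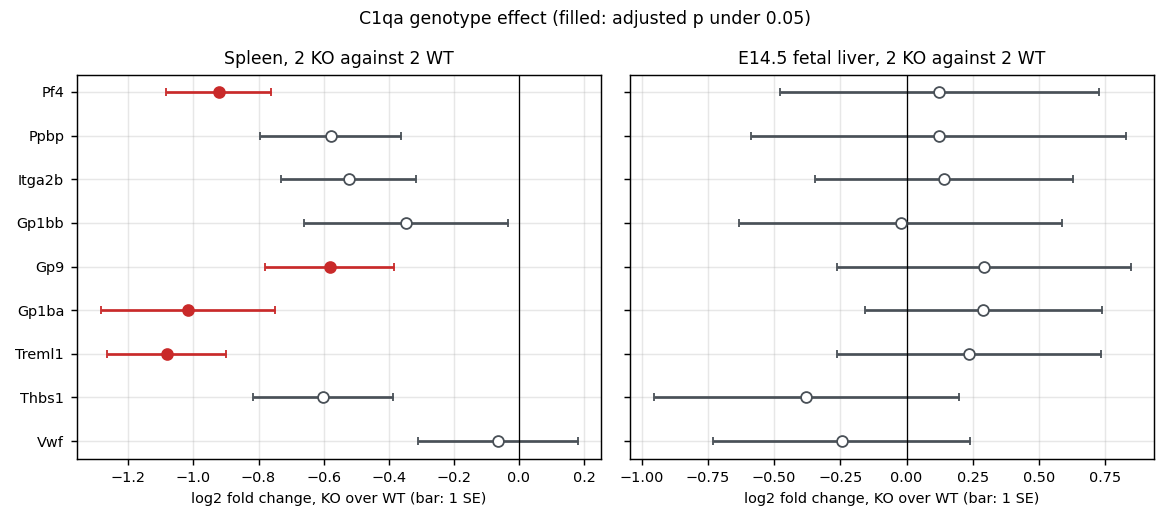
Log2 fold change of each gene between C1qa knockout and wild-type sections with 1 standard error, in spleen (left) and E14.5 fetal liver (right), 2 sections per group. Filled red points passed an adjusted p of 0.05. In spleen all 9 points lie below 0 and 4 are filled, and in fetal liver all 9 error bars cross 0.

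The difference between the genotype effects of the tissues was tested itself. With 4 group means, 0 of 19180 genes passed (0.0%), with 2018 at an unadjusted p under 0.05 and 8 in DESeq2. Among members the unadjusted p was 0.0361 for Treml1 (log2 difference -1.34, SE 0.53) and 0.044 for Gp1ba (-1.26, SE 0.53), with adjusted p = 0.454 for both. When the litter of each fetal liver was added to the model, 1409 of 19180 genes passed, and among them Treml1 (-1.41, SE 0.33, adjusted p = 0.0146), Gp1ba (-1.31, SE 0.39, adjusted p = 0.0458) and Pf4 (-1.11, SE 0.34, adjusted p = 0.0498). The litters also differ in the share of hepatocyte spots and in depth, which cannot be told apart from litter.

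Within sections, the genes were unevenly spread over spots. In the purchased E14.5 fetal liver, with a median of 64103 UMIs per spot, Pf4 had a UMI in 99.8% of 854 spots, whereas in wild-type spleen 2, with a median of 2294, it had one in 21.3% of 1646. With each spot thinned to 2000 UMIs, which left out the shallower spots, Pf4 was found in 71.6% of spots of 89-week marrow, 56.2% of E14.5 and 53.4% of E13.5 fetal liver, 35.9% of P8 marrow and 28.0% of the adult spleen. In the spleens of the cross the thinned share was 20.5 and 17.9% in wild types and 9.30 and 9.19% in knockouts, and Thbs1, at 12.5 and 15.9% against 6.98 and 7.73%, had the same order. Thinning left out 554 of the 1646 spots of wild-type spleen 2, against 0 to 4 spots in each of the other cross spleens. Off-tissue spots also held UMIs of the members, so that a UMI in a spot need not come from a cell below it.

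Counts also clumped. At 2000 UMIs the variance of Pf4 over spots was 1.76 to 5.11 times its mean in the 13 sections, where evenly spread counts give a ratio near 1, and Gp1bb, the sparsest, lay at 0.983 to 1.39. The highest spot held 454 UMIs of Pf4 in P8 marrow, and 1376 UMIs of all members together. The 5% of spots with the highest share of Pf4 were then taken in each section, and the other 8 genes read in them. Every gene was higher in these spots than in the rest of its section in all 13 sections, from 3.29 to 28.4 times for Ppbp, 3.34 to 20.8 for Treml1, 3.18 to 13.5 for Itga2b and 2.45 to 15.1 for Gp1bb. The smallest ratio of all was that of Thbs1 in P8 marrow, at 1.47.

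The members went together from spot to spot. Pearson r of each gene's log2 level with the sum of the other 8 had a median over 13 sections of 0.62 for Pf4, 0.53 for Ppbp, 0.48 for Thbs1, 0.46 for Treml1 and 0.44 for Itga2b, falling to 0.27 for Vwf and 0.21 for Gp1bb. These r are a description, since spots of a section share a library and sparse genes lower r. For all 9 genes it was highest in the deep E13.5 fetal liver, at 0.91 for Pf4. For Pf4 and Thbs1 it was lowest in P8 marrow, at 0.10 and -0.09, as it was there for Ppbp and Treml1, while the other 5 genes had their lowest r in a spleen of the cross. In P8 marrow Thbs1 held 14.8 of the 27.3 member UMIs per spot, so it weighs most in sums that include it. Over the 13 sections the lowest r of Pf4 was 0.29 with Ppbp and -0.09 with Thbs1. Pf4 and Ppbp were the pair with the highest median r, 0.52. Neighbouring spots also resembled each other: r of Pf4 with the mean of its adjacent spots was highest in the fetal liver of wild type 4, at 0.89. It stood at 0.49 to 0.65 among cross spleens and at 0.32 in the purchased adult spleen. In P8 marrow it was 0.59, and it was lowest in 89-week marrow, at 0.12. Spots under the hepatocyte minimum made up 69.7% of wild-type fetal liver 4, and their part in the r of 0.89 was not tested. Vwf, which endothelium also makes, had r of 0.36 and 0.31 with endothelial genes in wild-type and knockout fetal livers 4 and of 0.02 to 0.14 in the other 11 sections.

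**Figure D5:**
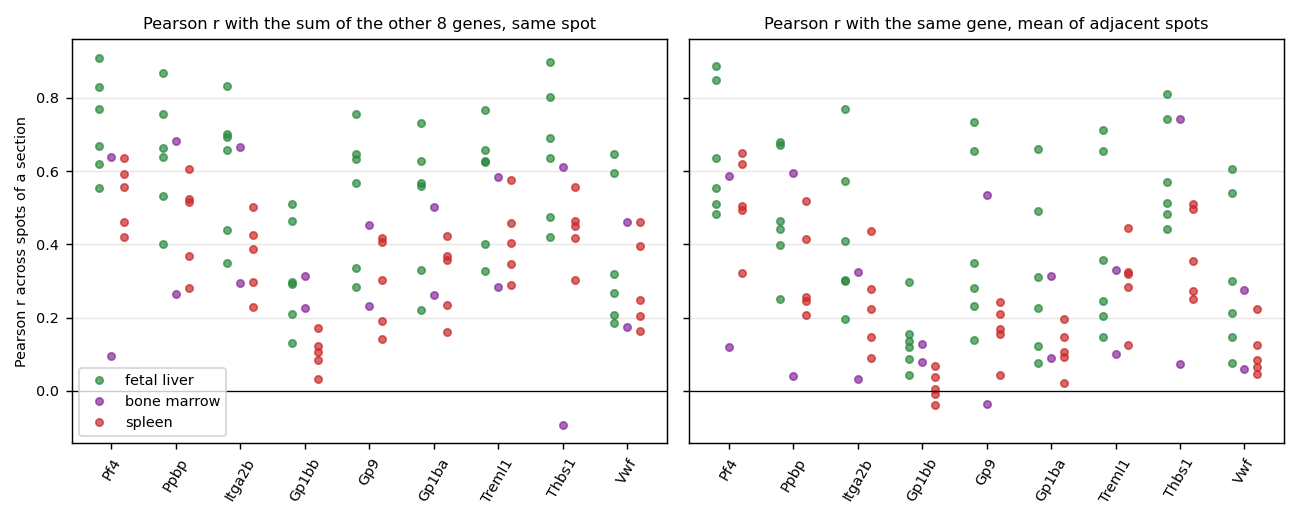
Pearson r across the spots of a section, for each gene with the sum of the other 8 genes in the same spot (left) and with its own mean in adjacent spots (right). Each point is 1 of 13 sections, coloured by tissue. Pf4 and Ppbp have the highest medians on the left (0.62 and 0.53), and Gp1bb has the lowest median on both sides (0.21 and 0.08). The lowest single point on the left is that of Thbs1 in P8 marrow, at -0.09.

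Genes most like the members over spots were sought among 7970 genes detected in at least 50 spots of all 13 sections. Outside the members, the 10 with the highest mean r with their sum were Alox12 (0.50, from 0.20 to 0.78), Itgb3 (0.49), Gp5 (0.46), Tubb1 (0.46), Parvb (0.36), Plek (0.34), Mrvi1 (0.34), Clec1b (0.34), Prkar2b (0.32) and Slpi (0.31). The 6 members Pf4, Thbs1, Ppbp, Itga2b, Treml1 and Gp9 were themselves in this set and took ranks 1 to 6, since they are part of the sum. Alox12, Itgb3, Gp5, Tubb1 (the tubulin of the platelet marginal band), Plek (the platelet protein pleckstrin) and Clec1b belong to the list of other megakaryocyte genes, and Slpi encodes a protease inhibitor of neutrophils and epithelia. Itgb3, Parvb and Slpi had an r below 0 in at least 1 section, the lowest being -0.09 for Parvb.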

How the data were processed

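Visium slides of formalin-fixed, paraffin-embedded mouse tissue were measured in 14 sections with 1 library each. The values are raw UMI counts per probe-targeted gene and spot, which the authors made with Space Ranger against mm10 (submitters' processing notes; versions are not given in the sources used here) and deposited without normalization. The deposited count matrices hold 32589 features with all spots for the 6 purchased sections, and 19465 features with in-tissue spots for the 8 sections of the cross. In-tissue spots with at least 1000 genes were kept, and counts were summed per section, which is the replicate. No doublet caller was run, since a spot covers several cells.

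Groups of 2 were compared with edgeR 4.0.16 (R 4.3.3, quasi-likelihood F test, TMM factors, filterByExpr, Benjamini-Hochberg adjustment over all genes, threshold 0.05), and DESeq2 1.42.0 was an alternative. All adjusted p values are from edgeR unless DESeq2 is named. Regions of the same section were compared with section as block. Where 1 section stands for a group, ratios of CPM with exact 95% counting intervals are given, a call means at least 2-fold among genes with at least 10 counts, and the floor is 3 counts. The edgeR script was tested on simulated counts. Replicates of a group differed beyond sampling noise (chi-square per degree of freedom at least 21.8). Deviations of same-numbered fetal livers, which the study describes as littermates of 1 pregnant mouse per number, correlated with r = 0.70 over 19271 genes, so the litter block was fitted as well. Spots under the hepatocyte minimum made up 5.60% and 3.26% of the sections numbered 2 (wild type, knockout) and 69.7% and 36.3% of those numbered 4. Median UMIs per spot were 8716 and 5170 against 46654 and 28497. Litter, tissue content and depth cannot be told apart in this r or in the block. Nothing says how spleen sections relate beyond their number. With 2 sections a group the p values rest on the spread between these sections, which edgeR estimates partly from all genes.

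All 9 members are named. Other megakaryocyte genes (49 listed) were named by the 6 smallest adjusted p values per comparison, and like genes by the 10 highest mean r. Genes outside these rules (Clu, Mef2c, Septin5) were named after their values or positions were seen, and the motif letters were chosen after the sequences were seen. The members and lists were chosen with earlier results of these data known.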

Additional observations from a re-analysis of the deposited data

Results flagged for a closer look

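For 3 genes the C1qa knockout effect differed between spleen and fetal liver by a test of the difference once the litter was in the model. In that fit 1409 of 19180 genes passed, and litter cannot be told apart from the tissue content and depth of the sections. In hepatocyte spots alone, with and without the block, all 9 fetal liver differences were below 0, as all 9 were in spleen. The difference of effects was not tested in those spots. The difference of the log2 effects, spleen minus fetal liver, was -1.41 for Treml1, -1.31 for Gp1ba and -1.11 for Pf4. Without the litter none of the 9 passed edgeR's test (adjusted p 0.454 to 0.900).

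For 4 genes both knockout fetal livers lay above both wild types while both knockout spleens lay below both wild types. Of all genes, 7.46% had the first order in fetal liver and 51.5% the second in spleen. The ratio of mean CPM, knockout over wild type, in fetal liver was 1.51 for Gp9, 1.47 for Treml1, 1.40 for Itga2b and 1.36 for Pf4. This opposite order of CPM was not itself tested, and in the model without litter the difference had adjusted p values of 0.454 (Treml1 and Pf4), 0.526 (Gp9) and 0.565 (Itga2b). In hepatocyte spots alone the log2 difference in fetal liver was below 0 for all 9 genes, with -0.30 for Pf4, -0.29 for Itga2b, -0.17 for Treml1 and -0.12 for Gp9.

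Spots outside the tissue of the purchased sections, which no comparison used, held counts of the members. Their summed CPM was 2642 beside the 89-week marrow, 1655 beside the EDTA marrow, 1476 beside the P8 marrow, 1056 beside the E13.5 and 905 beside the E14.5 fetal liver, and 743 beside the adult spleen. Of the member UMIs in off-tissue spots and in-tissue spots passing the gene minimum, off-tissue spots held 23.7 to 48.3%. Of all UMIs in the same spots they held 26.7 to 49.9%. In the EDTA section 15 of 814 in-tissue spots passed, with 37167 of 449883 in-tissue UMIs, so its shares leave out most in-tissue UMIs.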

How the results depend on the processing

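With 2 sections per group, counts of called genes moved with the fit. For knockout against wild-type fetal liver (0 called), DESeq2 called 7 genes, the replicate block (litter) 157, a joint model of 8 sections with litter 170, hepatocyte spots alone 1 and hepatocyte spots with the replicate block 25, and leaving out 1 section gave 0 to 109. For spleen (3886), the joint model called 1247 and lymphocyte-rich tertiles alone 1807, and leaving out 1 section gave 240 (without knockout spleen 2) to 4972 (without knockout spleen 1). The members called there, 4, became 7 with upper-quartile factors, 7 with the replicate block by number and 1 in lymphocyte-rich tertiles, and 1 to 4 with 1 section left out. Spleens share only a number (r = 0.06 over 19184 genes), and their block called 4968 genes. The difference of genotype effects called 8 genes in DESeq2 and 1409 with the replicate block (litter), 3 of them members. Fetal liver against spleen called 4 members in wild-type sections alone, and 5589 to 12043 genes and 6 to 9 members with 1 section left out. The spleen tertiles (2376) gave 1508 in DESeq2, 278 with no replicate block and 3566 in wild types alone, and 1166 to 2559 genes and 8 to 9 members with 1 section left out. Hepatocyte against other spots gave 3544 to 6226 genes and 4 to 7 members. Of P8 marrow against E14.5 fetal liver, 0 members were 2-fold higher in neutrophil and hepatocyte spots alone and 2 were lower with hemoglobin left out.

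None of the fetal liver genotype values was called, and these changed sign. In hepatocyte spots alone, and with the block added, Pf4 was at -0.30 and -0.28, Ppbp -0.13 and -0.12, Itga2b -0.29 and -0.29, Gp9 -0.12 and -0.14, Gp1ba -0.21 and -0.17, and Treml1 -0.17 and -0.17. Gp1bb turned to 0.26 (upper-quartile factors), 0.083 (replicate block), 0.082 (thinned), 0.0055 (hemoglobin left out) and 0.082 (joint model), and Vwf to 0.0029 (upper-quartile factors). With 1 section left out they ran from -0.23 to 0.67 for Pf4, -0.53 to 1.49 for Ppbp, -0.25 to 0.76 for Itga2b, -0.41 to 0.58 for Gp1bb, -0.18 to 1.08 for Gp9, -0.16 to 0.87 for Treml1 and -0.62 to 0.33 for Vwf. In the other comparisons Vwf turned to -0.36 for the difference of genotype effects (upper-quartile factors), Vwf in spleen ran from -0.31 to 0.10, and Thbs1 in hepatocyte against other spots from -0.012 (without wild-type fetal liver 2) to 1.13.

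Of the alternatives that kept all sections, 91 of 110 counts stayed near the main count and 409 of 495 member values kept their reading. With 1 section left out 36 of 48 and 170 of 216 did. A fitted value kept its reading if its sign and its call both stayed, and a ratio if it stayed within the main counting interval. A fitted value or called ratio turned direction for 19 of 495 member values, and for 16 of 216 with 1 section left out. Hepatocyte spots with the block and lymphocyte-rich tertiles alone were chosen after seeing the data. Where a section left out leaves 1 in a group, it is assumed to vary like the others. The causes of these changes were not tested. Low counts limit Gp1bb most, and the 15 EDTA spots allow no comparison.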

Other observations

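The EDTA marrow, kept out of all comparisons, had Pf4 at 942 CPM on 35 counts and Treml1 at 377 CPM on 14 counts. Over all its 814 in-tissue spots Pf4 was at 965 CPM on 434 counts, Treml1 at 209 CPM on 94 counts and Gp1ba at 40.0 CPM on 18 counts. The 35 to 88 pancreas spots of 3 cross spleens had Pf4 at 22.4 CPM (knockout 1), 5.93 CPM (knockout 2) and 117 CPM (wild type 2).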
